A study of Homo sapiens with 4 samples.

Results

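The metallothionein genes of Hep3B cells were read from every probe that the array files name MT1A, MT1B, MT1E, MT1F, MT1G, MT1H, MT1M, MT1X or MT2A. These 9 genes had 11 probes in 17 spots, of 42405 probes on the array other than controls. Hep3B is an established line of human hepatocellular carcinoma cells that carry hepatitis B virus DNA and make no p53. All cultures were transfected with a pLKO.1 plasmid and purified with puromycin at 1 μg/ml, and their total RNA was read on 1-colour Agilent arrays. The control was 1 array of cells with the mock hairpin, shR-MOCK. The UNC50 knockdown group held 3 arrays, 1 for each short hairpin against the UNC50 mRNA, named by its target position in bp (shR-467, shR-554, shR-749). The question was which genes changed when UNC50 was knocked down. The hairpins were treated as 3 replicates of knockdown, so the spread between them holds effects of a single hairpin, and with 1 mock array the spread between control cultures is not known.

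Metallothioneins are small proteins in which cysteines make up a large share of the residues. Their thiol groups bind zinc and copper, and also toxic metals such as cadmium. Their genes lie in a cluster on chromosome 16, and zinc, cadmium, glucocorticoids and oxidants are known to raise their transcription, metals largely through the zinc-sensing factor MTF1. The liver is a major site of their expression. MT2A and the MT1 genes are made in many tissues, while MT3 is known from the brain and MT4 from stratified epithelium. Less RNA per cell and fewer cells with the RNA cannot be told apart in these bulk samples.

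UNC50 itself had 1 probe, which stood after scaling at 24.0% of its mock level with shR-467, at 13.7% under shR-554 and at 18.7% under shR-749. All 8 hepatoma markers, among them ALB and AFP, were well above background on every array, against between 1 and 3 of 5 fibroblast markers and 3 of 4 blood markers. The summed signal of the hepatoma markers lay between 427500 and 646900 per array, that of the fibroblast markers between 202 and 323.5 and that of the blood markers between 1890 and 2901. Of the blood markers, CD14 read 1750 to 2743, and HBB was not well above background. The share of spots well above background was 67.6% to 73.6% and lowest on the shR-554 array. The 4 arrays came from the same slide and scan, with mock and shR-467 in row 1 of that slide and the other 2 hairpins in row 2.

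The probes for MT1A, MT1H and MT1X that lie in the coding sequence are shown because they overlap in sequence, which bears on what each of them can measure. Capitals mark the runs of at least 17 bases that a probe shares with another of the 3.
MT1A: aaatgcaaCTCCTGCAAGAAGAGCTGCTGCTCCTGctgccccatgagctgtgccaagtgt
MT1H: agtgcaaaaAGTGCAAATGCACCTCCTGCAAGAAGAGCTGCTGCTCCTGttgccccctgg
MT1X: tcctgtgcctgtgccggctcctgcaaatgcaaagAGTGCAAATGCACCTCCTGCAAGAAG
The MT1A and MT1H probes shared a run of 27 bases, and 42 of the 46 bases in their best overlap matched (91.3%). The MT1H and MT1X probes shared 26 bases, and 33 of 35 matched (94.3%). In the open frame, 8 of the 20 codons of the MT1A probe, 8 of 19 of the MT1H probe and 7 of 20 of the MT1X probe were TGC or TGT, which code for cysteine. The array annotation also lists MT1M under the MT1A probe and MT1B under this MT1X probe. It places the MT1X probe within the cluster, at chr16:56717082-56717141 of the build hg19 on the plus strand. The other 2 are placed elsewhere, the MT1A probe at chr20:33805884-33805943 (plus strand) and the MT1H probe at chr1:237167555-237167614 (minus strand), although the RefSeq gene table has both genes on chromosome 16. What these 3 probes measured can therefore not be assigned to a single gene.

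**Figure D1:**
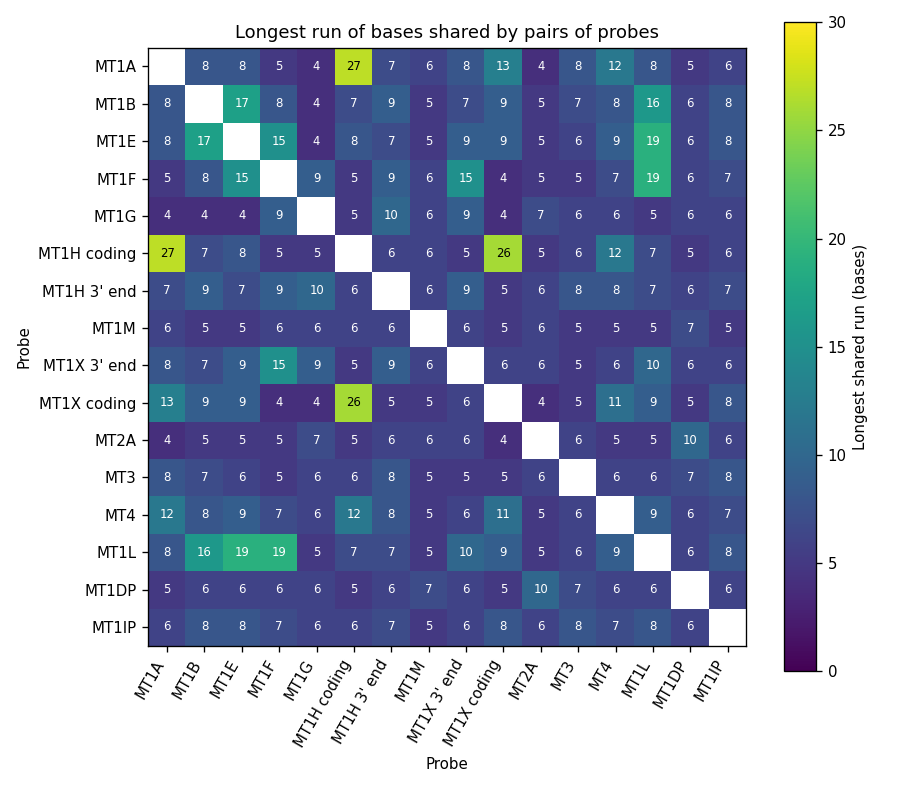
Longest run of bases shared by pairs of 60-base probes for metallothionein genes and pseudogenes, with the number of bases in each cell and as colour. The MT1H coding probe stood out by runs of 27 and 26 bases with MT1A and MT1X, the MT1L probe shared 19 bases with both MT1E and MT1F, and the MT2A, MT1G and MT1M probes shared at most 10 bases with any other.

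The remaining 8 probes lie nearer to the 3′ end of the transcripts. The MT1B and MT1E probes shared 17 bases, and the MT1E and MT1F probes each shared 19 with the probe of the pseudogene MT1L. The MT1F probe and the 3′ probe of MT1X shared 15. These are unbroken runs, and the best overlaps matched further. In them, 49 of 59 bases matched for MT1B and MT1E (83.1%) and 49 of 60 for MT1F and the MT1X 3′ probe (81.7%). With the MT1L probe, 38 of 42 matched for MT1E (90.5%), 38 of 43 for MT1B (88.4%) and 36 of 47 for MT1F (76.6%). The MT2A probe shared no more than 10 bases with any other metallothionein probe. Outside the family, 2 further probes of the array shared at least 17 bases with a member. A transcript that the array describes only as a metallothionein shared 17 bases with the MT1X coding probe. A predicted gene, LOC100130445, matched 19 bases of the MT1M probe on the opposite strand.

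Most metallothionein probes gave a signal in Hep3B cells. A signal well above background was found on every array for 8 of the 11 probes, on 3 arrays for 1 and on none for 2. Probes detected in this way with the mock hairpin, or else with all 3 knockdown hairpins, were kept, which left 9 probes of 8 genes. MT1M had no kept probe. Its 3′ probe read 4.58 for mock, 5.28 for shR-467, then 6.85 for shR-554 and 5.60 for shR-749, which is at most 0.242 times the lowest signal well above background of an array. MT1H was kept through its coding probe only. The coding probe read 978 for mock, 763 for shR-467, then 956 for shR-554 and 964 for shR-749, while the 3′ probe, in the same order, gave 4.84, 9.65, 7.02 and 6.37 and did not rise well above background on any of them. The 2 probes of this gene thus disagreed on whether it was detected.

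**Figure D2:**
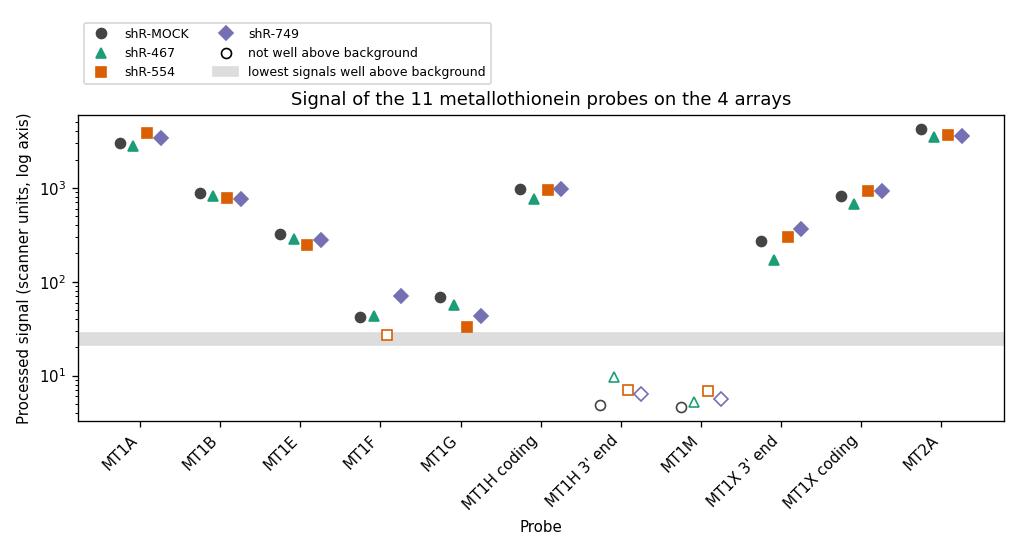
Processed signal of the 11 metallothionein probes on each of the 4 arrays, on a log axis, as the geometric mean over the spots of a probe and before scaling between arrays. Filled symbols are well above background, and the grey band spans the lowest such signal of the 4 arrays, from 21.2 to 28.3. The MT1M probe and the 3′ probe of MT1H lay below the band on every array, and the MT1F probe lay within it with shR-554.

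On average over the hairpins, most metallothionein genes differed from mock by less than 1.5-fold. The limma intervals of all kept genes except MT1A reached past 1.5-fold, so closeness to mock was not shown. Of the 8 kept genes, 6 were below and 2 above the mock array, a split that held under every scaling but not for every choice of hairpins. Leaving out shR-554 made it 5 below mock, and leaving out shR-749 made it 7. All 8 values were taken against the same mock array, so the split is not a count of independent results. The median of their mean log2 differences was -0.20, beside -0.03 over all 25149 genes kept. MT1G passed the study's threshold of a 1.5-fold average change, so 1 of 8 did, against 9.98% of all genes. None reached 1.5-fold the same way with every hairpin, against 1.77% of all genes. In limma, 0 of the 8 genes had an adjusted p under 0.05, as had 0.0% of all genes. At an unadjusted p under 0.05, limma called none of the 8 and 381 of all genes (1.51%), and the methods' t-test none of the 8 and 646 of all genes. The adjusted p of each member was 1.00 in limma, and the unadjusted p ranged from 0.228 for MT2A to 0.985 for MT1F. An exact permutation test of 1 array against 3 cannot go below p = 0.25. UNC50 had the smallest unadjusted p of any gene in limma, 0.000133, at a mean log2 difference of -2.45 ± 0.40 (SD, n = 3 hairpins). Its adjusted p in limma, 0.613, was the lowest reached, though not by UNC50 alone.

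MT2A encodes the main metallothionein of many human cells. Its probe read 4240 for mock, 3440 for shR-467, then 3610 for shR-554 and 3570 for shR-749. Scaled by the 75th percentile of each array, these were 92.9%, 68.6% and 83.5% of mock. Each hairpin was below mock, and shR-554 was the lowest. The mean log2 difference was -0.30 ± 0.22 (SD, n = 3 hairpins), with a 95% interval from -0.85 to 0.24 in limma. Without shR-554 the mean was -0.18. This probe had 1 spot, so the error of the array surface was not measured for it.

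MT1G, a gene of the MT1 group that is known to be silenced by methylation in some liver tumours, had the largest mean difference of the 8 kept genes. Its probe, in the 3′ part of the transcript, read 67.9 for mock, 56.4 for shR-467, then 32.8 for shR-554 and 43.4 for shR-749. After scaling, this was 95.2%, 38.9% and 63.3% of mock, so 2 of the 3 hairpins were past 1.5-fold and shR-467 was not. The mean log2 difference was -0.70 ± 0.65 (SD, n = 3 hairpins), with a limma 95% interval from -2.10 to 0.70. Without shR-554 it was -0.37 and with normexp background correction -0.24, both under the threshold, and without shR-467 it was -1.01. The signals were dim. With shR-554 the 2 spots read 46.1 and 23.3, and the second was not well above background. Taken alone they gave log2 differences of -0.87 and -1.86.

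MT1E and MT1B followed the same order of hairpins as MT1G. MT1E read 324.4 for mock, 282.7 for shR-467, then 247.1 for shR-554 and 274.7 for shR-749. This was 99.8%, 61.4% and 83.9% of mock after scaling. MT1B read 887 for mock, 827 for shR-467, then 777 for shR-554 and 754 for shR-749, or 106.8%, 70.6% and 84.3% of mock after scaling. Both were near the mock array under shR-467 and lowest with shR-554. Their mean log2 differences were -0.32 ± 0.36 for MT1E and -0.22 ± 0.30 for MT1B (SD, n = 3 hairpins). Without shR-554 they were -0.13 and -0.08. The limma intervals ran from -1.12 to 0.48 and from -0.90 to 0.46. These probes share a run of 17 bases and matched at 49 of 59 bases, so the 2 readings may not be independent.

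MT1F split the hairpins. Its probe read 42.0 for mock, 43.4 for shR-467, then 27.4 for shR-554 and 69.9 for shR-749. After scaling, it stood at 118.5%, 52.5% and 165.0% of mock, with shR-749 past 1.5-fold above mock and shR-554 past 1.5-fold below. Neither spot was well above background with shR-554, so the reading of 27.4 there is not a measured level, and the mean and SD rest on it. With dim values set to the dimmest signal called well above background on their array, the log2 difference with shR-554 was -0.83 in place of -0.93 and the mean 0.04. The mean log2 difference was 0.01 ± 0.85 (SD, n = 3 hairpins), the widest spread of the 8 kept genes, and its limma interval ran from -1.64 to 1.66. Leaving out shR-467 or shR-749 turned it to -0.10 and -0.34.

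MT1A, read from the coding probe shown above, had the narrowest spread of the 8 kept genes. Its signal was 3019 for mock, 2795 for shR-467, then 3863 for shR-554 and 3350 for shR-749. The higher raw signal with shR-554 went with a higher 75th percentile on that array (1390, against 1120 for mock). After scaling the gene stood at 106.0%, 103.1% and 110.0% of mock. The mean log2 difference was 0.09 ± 0.05 (SD, n = 3 hairpins), with a limma interval from -0.36 to 0.54. The interval does not reach 1.5-fold in either direction, but it takes the spread of the lone mock array from the hairpins. The probe also cannot be assigned to MT1A alone, so a 1.5-fold change of this gene is not excluded. For MT1H, the coding probe stood at 89.3%, 78.8% and 97.7% of mock, and the mean log2 difference was -0.18 ± 0.16 (SD, n = 3 hairpins).

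MT1X had 2 kept probes. The coding probe read 823.9 for mock, 663.9 for shR-467, then 929.9 for shR-554 and 927.9 for shR-749, and stood at 92.3%, 91.0% and 111.6% of mock after scaling. The 3′ probe shares a run of at most 15 bases with another metallothionein probe, that of MT1F, where 49 of 60 bases matched (81.7%). The 3′ probe read 269, 172, 297 and 368 in the same order and stood at 73.2%, 89.0% and 135.6% of mock. Both were below mock with shR-467 and shR-554 and above it with shR-749, with a wider range between hairpins in the 3′ probe, 0.89 against 0.30 on the log2 scale. The mean log2 difference was -0.03 ± 0.16 for the coding probe and -0.06 ± 0.45 for the 3′ probe (SD, n = 3 hairpins). The signs depended on the hairpins used, with 0.01 without shR-467 and 0.02 without shR-554 for the coding probe and 0.14 without shR-467 for the 3′ probe.

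**Figure D3:**
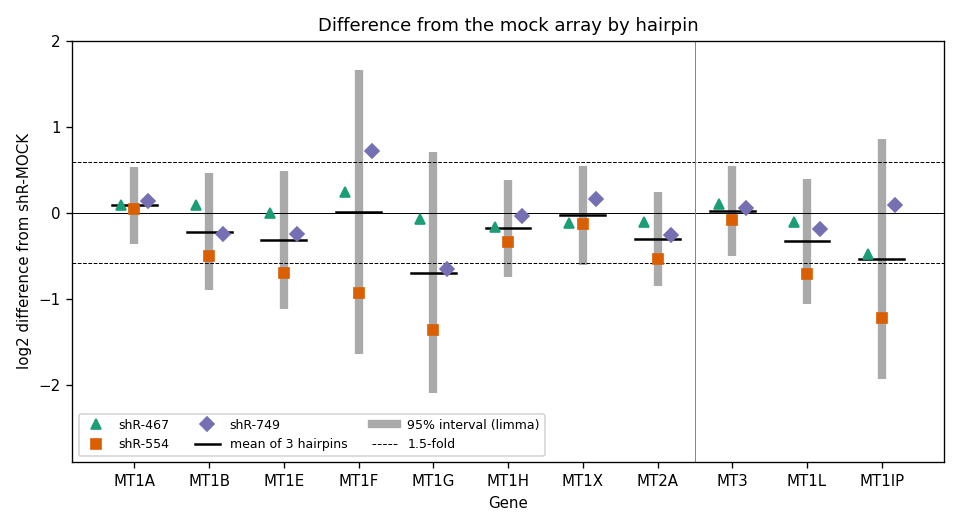
Log2 difference from the mock array of each kept metallothionein gene (left of the line) and of MT3 and the pseudogenes MT1L and MT1IP (right), by hairpin. Black bars are means of 3 hairpins, grey bars the 95% intervals of the limma fit and dashed lines 1.5-fold. In each of the 8 genes the square of shR-554 is the lowest of the 3 hairpins, and every interval includes 0.

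The hairpins differed among themselves. The median range between them over the 8 genes was 0.52 on the log2 scale, beside 0.48 over all genes. With shR-467, 0 of the 8 genes were 1.5-fold or more from mock, against 14.1% of all genes. With shR-554, 3 of 8 were, namely MT1E, MT1F and MT1G, all lower, against 20.4% of all genes in either direction. Most genes past 1.5-fold on that array were lower too, 4014 against 1108 higher. With shR-749, MT1F was higher and MT1G lower, 2 of 8 against 15.8% of all genes. The median log2 difference of the 8 genes was -0.04 with shR-467, but -0.52 with shR-554 and -0.14 with shR-749, beside 0.03, -0.04 and -0.06 over all genes. With shR-554, 7 of the 8 genes were below mock, against 54.9% of all genes, and MT1A was the exception. Of the 3 hairpins, shR-554 gave the lowest value in 8 of 8 genes, against 37.6% of all genes. Where every array had measured the gene well above background, it did so in 7 of 7 members and 33.5% of all. With median scaling it was 6 of 8, without MT1A and MT1X. With the mean over the probes of a gene it was 7 of 8, without MT1X, whose 3′ probe was lowest with shR-467. Several of these probes share sequence, and the shR-554 array also had the lowest share of spots well above background and the highest 75th percentile, whose part in this order was not tested. Within row 1 of the slide, the differences from mock are those given for shR-467. Within row 2, shR-554 was lower than shR-749 in 8 of the 8 genes, against 49.9% of all genes. This follows from shR-554 being the lowest of the 3 hairpins in each gene and is not a separate observation. For shR-554 or shR-749 against mock, row and hairpin cannot be told apart.

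**Figure D4:**
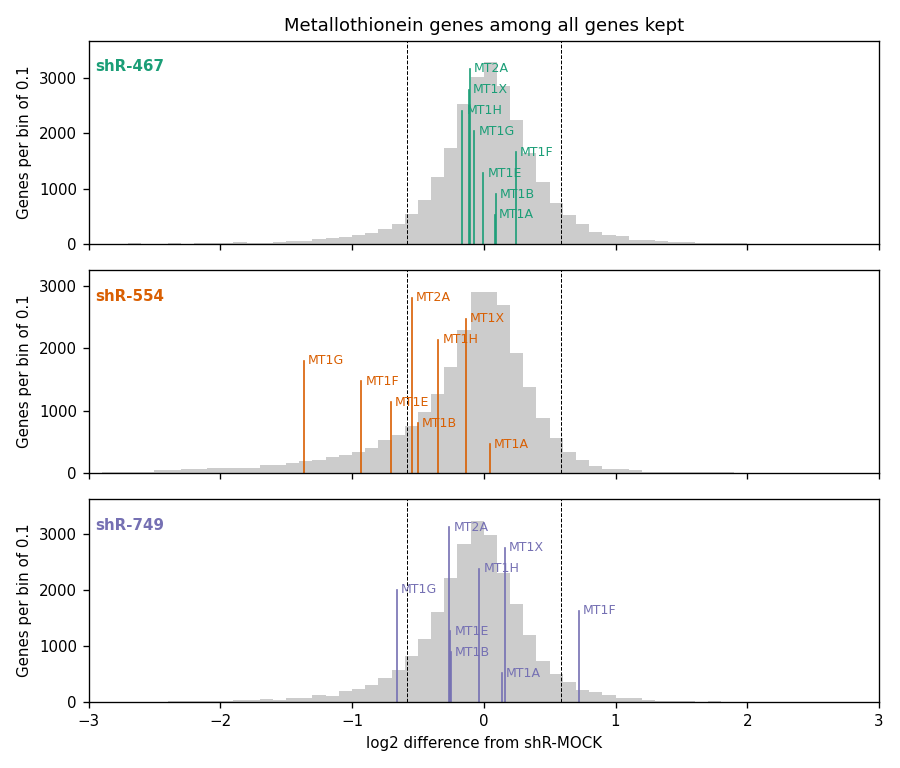
Log2 difference from the mock array of all 25149 genes kept, in bins of 0.1, for each hairpin, with the 8 metallothionein genes marked by lines whose heights only separate the labels. Dashed lines are 1.5-fold. The members lie inside the dashed lines with shR-467, while with shR-554 they lie toward the lower side, and MT1G and MT1F are farthest out.

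Of 10 other metallothionein genes and pseudogenes looked up, 5 had a probe and 3 were kept. MT3, the brain form, read 1093 for mock, 1024 for shR-467, then 1280 for shR-554 and 1144 for shR-749, which is 107.2%, 94.4% and 103.7% of mock. Its mean log2 difference was 0.02 ± 0.10 (SD, n = 3 hairpins). The pseudogene MT1L read 663, 539, 504 and 585 in the same order, or 93.1%, 61.3% and 87.5% of mock, an order of hairpins like that of MT1E, with which its probe shares 19 bases. MT1IP was dim, at 66.1, 41.4, 35.0 and 71.0, and its mean log2 difference was -0.54 ± 0.66 (SD, n = 3 hairpins). MT4 and MT1DP were not well above background on any array. None of the 3 kept genes reached 1.5-fold on average.

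The genes that sense or move metals were counted from fixed lists, and limma called none of their members at an adjusted p under 0.05 and 1, SLC40A1, at an unadjusted p under 0.05. MTF1, which binds the metallothionein promoters when zinc rises, read 451.5 for mock, 355.7 for shR-467, then 548 for shR-554 and 377 for shR-749 and had a mean log2 difference of -0.15 ± 0.12 (SD, n = 3 hairpins). SLC30A1, the zinc exporter at the cell surface that is itself an MTF1 target, read 1900, 2165, 1842 and 2040 in that order, and its mean log2 difference was 0.04 ± 0.37 (SD, n = 3 hairpins). Of MTF1 and the zinc transporters, 24 of 25 genes were kept, with a median of 0.04. There 2 were at least 1.5-fold lower on average and none higher, which is 8.33% against 9.98% of all genes. They were SLC30A8, the zinc transporter of insulin granules, and SLC39A12, and both were dim. SLC30A8 read 36.1, 19.5, 16.6 and 12.3, and its means with the hairpins lay below the lowest signal well above background of their arrays. Its mean log2 difference was -1.23 as measured, but -0.35 with dim values set to that level, which is under the threshold. SLC39A12 was detected well above background with the mock hairpin alone, so that its mean over the hairpins is known only as at least 1.03-fold lower. With shR-467 alone the dimmest detected signal lay 0.15 above mock on the log2 scale, so the direction there is not known.

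In the remaining lists the counts are to be read against the same 9.98% of all genes. None of the 9 copper genes reached 1.5-fold on average (median 0.05), among them SLC31A1, which takes up copper, and ATP7A and ATP7B, which export it. Of 8 iron genes, 1 was higher, the iron exporter SLC40A1, at 3541 on the mock array and 5357, 5688 and 6416 with the hairpins (mean log2 difference 0.67 ± 0.26, SD, n = 3 hairpins). Of 9 genes of metal and oxidative stress, 1 was higher on average. This was HMOX1, which breaks down haem and is known to respond to cadmium and oxidants, at 2609, 6233, 2960 and 5246. Its log2 differences were 1.45 with shR-467 and 1.00 with shR-749, but -0.13 with shR-554. None of 8 glucocorticoid response genes reached 1.5-fold on average, but 1 did under shR-467, 2 did under shR-554 and 3 did under shR-749. TSC22D3 was among them each time, with log2 differences of 0.65, -0.67 and 0.94 in that order. The receptor NR3C1 was at 0.16 ± 0.11 and its target FKBP5 at -0.33 ± 0.11 on the log2 scale (mean difference ± SD, n = 3 hairpins).

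In the RefSeq table the order of the cluster on chromosome 16 runs from MT4 through MT3, MT2A, MT1L, MT1E, MT1M, MT1A, MT1B, MT1F, MT1G, MT1H, MT1IP and MT1X to NUP93, SLC12A3 and HERPUD1. Of these last 3, NUP93, a nuclear pore protein, had a mean log2 difference of 0.07 ± 0.10 (SD, n = 3 hairpins). HERPUD1, a gene of the endoplasmic reticulum stress response, was above 1.5-fold on average, at 12150 for mock, 14500 for shR-467, then 20680 for shR-554 and 22590 for shR-749. SLC12A3 was not well above background with shR-554 or shR-749, and its mean log2 difference was -1.09 as measured but -0.20 with dim values set to the dimmest detected signal.

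Metal response elements, the sites that MTF1 binds, were looked for in the 250 bases before the RefSeq start of each gene, by their cores TGCACNC and TGCGCNC on both strands. Windows were found for 4 of the 9 members. MT2A had 7 cores, MT1H 8, MT1X 4 and MT1B 3. Of 35116 such windows, 24.8% held at least 1 core, 1.58% at least 3, 0.37% at least 4 and 0.0513% at least 6. The MT2A window is printed since the MT2A probe had no run over 10 bases in common with the rest of the family. It lies at chr16:56608334-56608583 of GRCh38.p14 on the plus strand, 5′ to 3′, with cores of either strand in capitals.
MT2A: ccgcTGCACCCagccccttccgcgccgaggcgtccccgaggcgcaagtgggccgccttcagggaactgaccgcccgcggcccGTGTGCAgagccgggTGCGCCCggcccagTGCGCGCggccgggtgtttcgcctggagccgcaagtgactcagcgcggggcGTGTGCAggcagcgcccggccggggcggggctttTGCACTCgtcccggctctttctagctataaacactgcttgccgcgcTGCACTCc
The cores nearest to the start began 8 and 54 bases before it in MT2A, 8 and 53 in MT1H and 53 and 78 in MT1X. These 4 genes, which hold several cores each, had mean log2 differences of -0.30 (MT2A), -0.18 (MT1H), -0.03 (MT1X) and -0.22 (MT1B). The values of MT1H and MT1X come from the coding probes, which cannot be assigned to a single gene. A match to a core is a description of the sequence and does not show that the site was bound.

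Likeness of profiles was measured as the root mean square distance of the log2 values over the 4 arrays, after each gene was centred on its own mean. The mean profile of the 7 metallothionein genes well above background on all arrays was 0.18 for mock and 0.14 with shR-467, against -0.33 with shR-554 and 0.01 with shR-749. MT2A was the member nearest to it, at 0.035, and MT1G the farthest, at 0.35. This distance counts the size of the differences as well as the shape of the profile. MT1G had the same order of arrays as the mean profile at a larger size. Its centred values were 0.52 for mock and 0.45 with shR-467, against -0.84 with shR-554 and -0.14 with shR-749. Of 21488 genes compared, 690 lay within 0.1, so a profile of this shape and size was not particular to the family. Among the members, MT2A, MT1B (0.077) and MT1E (0.090) lay within 0.1. MT1H (0.11), MT1X (0.20), MT1A (0.21) and MT1G did not, although the mean includes each of them. The 5 nearest genes outside the family were ATP1B1 of the sodium pump at 0.0069, the mitochondrial channel VDAC1 at 0.011, the copper transporter ATP7A at 0.012, a lincRNA at 0.017 and MEFV at 0.018.

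**Figure D5:**
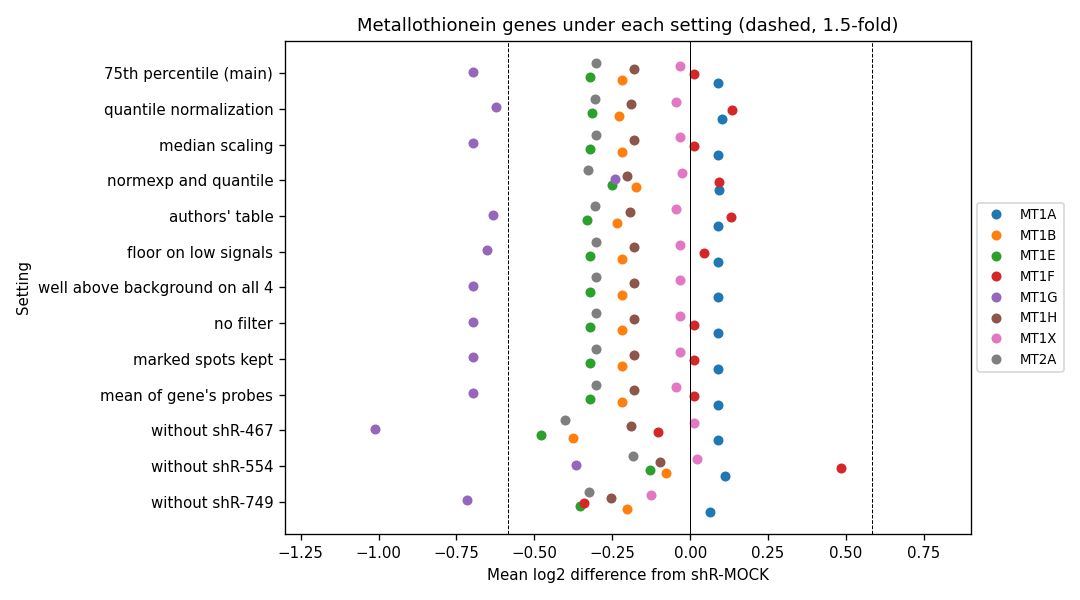
Mean log2 difference from the mock array of each metallothionein gene under the processing used and under 12 alternatives, with a colour for each gene and dashed lines at 1.5-fold. MT1G was past the line in all settings except normexp background correction (-0.24) and without shR-554 (-0.37), and MT1F and MT1X crossed 0 when single hairpins were left out.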

How the data were processed

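Per the labels, total RNA of 4 Hep3B cultures was extracted with Trizol, labelled with Cy3 and hybridised to Agilent arrays. The authors deposited the output of Agilent Feature Extraction 10.7.1.1, in which each spot has an intensity as measured and as a processed signal with background subtracted, and a table of log2 values whose normalization is not given in the sources used here. Samples were grouped by the hairpin in their titles.

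Processed signals were taken to log2 and each array was scaled by its 75th percentile. Outlier spots marked by the software (254 to 466 per array) were dropped, and spots of the same probe were averaged. A probe counted as well above background when at least 50% of its spots were so marked, and 30275 probes of 25149 genes passed the filter given in the text. Each gene was read from its kept probe with the highest mean. The threshold of 1.5-fold follows the methods. limma 3.58.1 (lmFit, eBayes with trend, Benjamini-Hochberg over all genes, R 4.3.3) was fitted to all 4 arrays (residual degrees of freedom 2, prior 4.98), which assumes that the lone mock array varies like the hairpins. With 1 sample per hairpin, p-values measure only the spread between these samples.

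Precision is limited by the number of arrays. Over 999 probes with 10 spots, spots of an array had a median SD of 0.056 to 0.071 (log2), an error of the array surface only. No spot was saturated. Probe positions come from the array annotation (hg19), and gene order and promoters from RefSeq tables of GRCh38.p14. Best overlaps of probes were ungapped and at least 30 bases long.

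The genes on the other side of the cluster are not reported here. The members and gene lists were chosen with earlier results of these data known. The text names every member probe, UNC50, list members past 1.5-fold on average or with a role described, and the genes nearest to the mean profile. HERPUD1, SLC12A3, HBB and CD14 were named after their values were seen. Alternatives were quantile, median and normexp (offset 50) normalization, the authors' log2 table, a floor on low signals, other filters, marked spots kept, the mean over the probes of a gene, a 2-fold threshold, limma without trend or on all probes, the methods' t-test, and each hairpin left out. On simulated data with 200 of 25149 genes changed 4-fold between knockdown and mock, 197 had the right sign, 196 passed 1.5-fold and limma called 0. All 4 simulated arrays, mock included, took the spread of each gene between the hairpins, and every hairpin had the same change. There 14.6% of the unchanged genes passed 1.5-fold, beside 9.98% of all genes in the data, so the simulated spread was not that of the data. Other tools were Python 3.11.15, numpy 2.4.6, pandas 2.3.3, scipy 1.17.1 and matplotlib 3.10.9.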

Additional observations from a re-analysis of the deposited data

How the results depend on the processing

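Over the 104 alternative values of single metallothionein genes and probes, 99 kept their sign, 5 changed sign, 2 were on the other side of 1.5-fold (MT1G with normexp, -0.24, and without shR-554, -0.37) and none passed an adjusted p of 0.05 in limma. The changes of sign were MT1F without shR-467 (-0.10) and without shR-749 (-0.34), and MT1X without shR-467 (0.011) and without shR-554 (0.022), and the 3′ probe of MT1X without shR-467 (0.14), all on the log2 scale. With a hairpin left out MT1F ranged from -0.34 to 0.48, MT1X from -0.13 to 0.02 and its 3′ probe from -0.31 to 0.14. The count of members at least 1.5-fold changed on average, 1, became 0 with normexp background correction and at a 2-fold threshold, and ranged from 0 to 1 with a hairpin left out. The count changed the same way with every hairpin, 0, ranged from 0 to 1 with a hairpin left out, the 1 being MT1G without shR-467. The median over members, -0.20, ranged from -0.29 to -0.09 with a hairpin left out, the last without shR-554.

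Over all genes, 2510 were changed on average, against 536 with normexp, 1532 with the floor on low signals, 1133 when all 4 arrays had to be well above background, 5365 with no filter, 686 at 2-fold, and 2402 to 3749 with a hairpin left out. Of those changed, 77.1% were lower, against 51.1% with normexp. The 4 list members changed became 2 with normexp and ranged from 4 to 8 with a hairpin left out. The 0 limma calls became 4 with normexp and ranged from 0 to 2 with a hairpin left out, 2 without shR-554, and no call was a metallothionein gene. The cause of these shifts was not tested.

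The block for slide and scan was not run because all arrays shared 1 slide and 1 scan. No paired analysis was possible because the mock group had 1 array and no number in the labels pairs the samples. Signal over background limits MT1F, MT1G and MT1IP most, since these lay near the lowest signal well above background of an array with shR-554.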
